A study of Mus musculus with 12 samples.

Results

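The genes described here are *Myc*, its partner and antagonists *Max*, *Mxd4* and *Mxi1*, and genes whose products make ribosomes, from transcription of ribosomal RNA by RNA polymerase I to assembly of both ribosomal subunits. They were taken by gene symbol from a list of 40 names, of which 39 are among the 12528 genes of both deposited tables. *Noc2l* was not analysed here. For description the 39 were divided by role into the *Myc* network (4 genes), RNA polymerase I and its factors (6), small nucleolar ribonucleoproteins (snoRNP) and nucleolar chaperones (9), the small subunit processome and 40S maturation (11), and 60S assembly (9).

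RNA-seq was compared between cells sorted from hearts of adult C57BL/6 mice that carry a *Bmi1*IresCreER allele and a YFP reporter in *Rosa26*. *Bmi1*-CPC (YFP+ cells, labelled as cardiac stem cells) were sorted in homeostasis and after acute myocardial infarction (AMI), and *Sca-1*-YFP- cells (SCA-1+, YFP negative and CD45-) were sorted in homeostasis. Each group had 4 libraries, each from pooled hearts of 6 mice in homeostasis and of 2 to 3 mice after AMI. All mice were injected with tamoxifen (TM) on 3 consecutive days, at 9 mg per 40 g. Homeostatic hearts were taken 5 days after TM, and infarcted hearts 5 days after an AMI that was itself induced 5 days after TM. All 3 groups thus share the *Bmi1* knock-in allele, the reporter and TM, and no group without TM was compared. YFP marks cells in which the *Bmi1* promoter was active when TM was given, together with the descendants of those cells, and it is no marker of a single cell type. The titles of the *Bmi1*-CPC libraries carry letters for SCA and YFP, while the protocol names detection of YFP alone, and whether SCA-1 was gated as well is not settled here. The removal of CD45+ cells is stated for the *Sca-1*-YFP- sort alone. The AMI and homeostatic groups also differ in the number of mice pooled and in the time from TM to harvest, and these cannot be told apart from AMI.

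MYC is a transcription factor that pairs with MAX to bind the E-box and raise transcription of many growth genes, while MXD4 and MXI1 pair with MAX at the same sites and repress. Ribosome production starts in the nucleolus, where RNA polymerase I, helped by UBTF and RRN3, transcribes the ribosomal RNA precursor. The precursor is then modified by snoRNP, cut by the small subunit processome and packed with ribosomal proteins into the 40S and 60S subunits. Growing and dividing cells make more ribosomes, and *Myc* is among the best known inducers of these genes.

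Libraries held 3397621 to 8031666 reads in *Sca-1*-YFP- cells, 4063619 to 4993906 in *Bmi1*-CPC and 6784686 to 8078721 in AMI *Bmi1*-CPC. Values are the authors' normalized expression values, in which 3 reads correspond to 0.369 to 1.036 depending on the library. Of all reads 10.4% to 23.7%, 25.0% to 32.8% and 20.3% to 33.4%, in the same order of groups, came from *mt-Rnr2*, a ribosomal RNA of mitochondria. Rescaling each library to the same total, mitochondrial reads included, shifted the median over all genes by −0.23 on the log2 scale in the homeostatic comparison and by 0.09 in the AMI comparison. The share of called genes that were higher then moved from 48.8% to 28.3% and from 49.3% to 61.2%, respectively. *Bmi1* itself was at 24.97 to 35.3 in *Sca-1*-YFP- cells, 43.4 to 59.95 in *Bmi1*-CPC and 41.1 to 49.7 after AMI. *Ly6a*, which encodes SCA-1, was at 508 to 782, 789.5 to 836 and 468 to 727. *Ptprc*, which encodes CD45, was at 0.813 to 2.12, 14.7 to 22.5 and 64.0 to 149. The 12 dividing cell markers summed to 92.2 to 134 in *Sca-1*-YFP- cells, 198 to 262 in *Bmi1*-CPC and 503 to 804 after AMI. Markers of fibroblasts (10 genes) summed to 17931 to 21591, 3494 to 6516 and 12685 to 18118, and those of endothelial cells (10) to 1473 to 3211, 5921 to 7847 and 3665 to 5477. Macrophage markers (10) summed to 3.59 to 6.24, 147 to 269.8 and 757 to 1349, with *C1qa*, *C1qc* and *Emr1* at 0 reads in all *Sca-1*-YFP- libraries. Cardiomyocyte markers (9) summed to 81.3 to 208, 834 to 1398 and 288 to 453, so that the sorted cells of all groups hold RNA of several cell types. In such bulk samples fewer cells of a type and less RNA per cell cannot be told apart.

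Of the 39 genes, 34 had a promoter in the RefSeq table for GRCm38.p6, which spans 250 bases before to 50 after each annotated start. *Myc*, *Npm1*, *Fbl*, *Rrp12* and *Bop1* had none there. The E-box CACGTG, the same on both strands, was searched because it is the sequence that MYC with MAX, and MXD4 or MXI1 with MAX, are known to bind. It was found in 8 of the 34 genes (23.5%), namely *Max*, *Mxd4*, *Rrn3*, *Tsr1*, *Wdr43*, *Utp20*, *Nop2* and *Pes1*. All promoters of that length in the table held it for 8.09% of 27025 genes, and the promoters of the genes in the deposited tables for 11.7% of 8587. A second sequence, CACGCG on either strand, was searched as well. It was found in 9 of the 34 genes (26.5%), in 19.7% of the genes in the deposited tables and in 10.5% of all 27025. *Rrn3* alone among the 34 held the E-box CACGTG at 2 positions, −215 and −48 from the start (the first base of each match). *Max* held the E-box across the start itself, from −3. The upstream stretches of 4 genes are printed to show where the match to CACGTG lies. *Mxd4*, with the match far from the start, and *Nop58*, without one, were called after AMI in every setting tried. *Rrn3*, with a pair of matches, was called in no comparison, and *Nop2*, with the match nearer to the start, was lower in AMI *Bmi1*-CPC against *Sca-1*-YFP- cells alone. The stretches of *Mxd4* and *Nop2* lie at chr5:34187711-34187960 on the minus strand and chr6:125131633-125131882 on the plus strand. Those of *Rrn3* and *Nop58* lie at chr16:13780449-13780698 and chr1:59684756-59685005, both on the plus strand. Each reads 5′ to 3′ towards the start of its gene, with the E-box in capitals.
Mxd4: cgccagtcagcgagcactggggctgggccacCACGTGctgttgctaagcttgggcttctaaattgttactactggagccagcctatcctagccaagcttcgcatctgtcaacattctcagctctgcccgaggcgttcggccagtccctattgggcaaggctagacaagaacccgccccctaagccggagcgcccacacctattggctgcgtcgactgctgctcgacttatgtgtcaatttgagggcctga
Nop2: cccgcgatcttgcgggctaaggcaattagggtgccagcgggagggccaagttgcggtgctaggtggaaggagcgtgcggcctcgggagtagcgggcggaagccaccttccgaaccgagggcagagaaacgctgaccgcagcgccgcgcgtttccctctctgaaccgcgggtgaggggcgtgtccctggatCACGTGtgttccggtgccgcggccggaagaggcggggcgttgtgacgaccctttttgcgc
Rrn3: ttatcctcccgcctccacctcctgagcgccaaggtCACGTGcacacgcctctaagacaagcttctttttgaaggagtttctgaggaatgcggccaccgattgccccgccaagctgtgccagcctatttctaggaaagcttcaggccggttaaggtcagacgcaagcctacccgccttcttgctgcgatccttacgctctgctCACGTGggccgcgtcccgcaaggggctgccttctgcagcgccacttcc
Nop58: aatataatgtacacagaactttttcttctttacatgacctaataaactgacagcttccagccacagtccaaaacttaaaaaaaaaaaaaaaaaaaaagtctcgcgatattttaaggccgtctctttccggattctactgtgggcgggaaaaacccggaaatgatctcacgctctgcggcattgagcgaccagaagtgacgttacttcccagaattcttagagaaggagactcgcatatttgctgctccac
A match describes these letters only, and binding was not measured.

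To see whether *Bmi1*-CPC and *Sca-1*-YFP- cells differ in this programme in the healthy heart, the 4 libraries of each were compared. Almost none of it differed: *Myc* was 3.37-fold lower in *Bmi1*-CPC, the 40S maturation gene *Tsr1* was lower too, and 37 of the 39 genes were not called. In limma at an adjusted p under 0.05, 0 were higher and 2 lower, where 16.8% of the 12450 genes tested were called higher and 17.6% lower (34.4% together). The groups did not overlap for 1 of the 39, *Myc*, against 16.6% of all genes without overlap and higher and 17.1% without overlap and lower (33.7% together). At an unadjusted p under 0.05 limma had 1 higher and 3 lower, and both edgeR and DESeq2 called 0 higher and 2 lower. The median log2 fold change of the 39 was −0.03 against 0.00 for all genes (−0.087 without *Bmi1*-CPC replicate 2), and rescaling to library totals without mitochondrial genes turned it to 0.04. The 95% interval of the log2 fold change lay within ±1 for 36 of the 39 genes (92.3%) and for 67.1% of all genes, at a median standard error of 0.18 against 0.19. Replicates of the same number deviated together in this comparison, and with the replicate number as block 1 gene was called higher, *Mxd4*. Without *Bmi1*-CPC replicate 3, 1 gene was also higher. The count of lower genes fell to 1 without *Sca-1*-YFP- replicate 4, *Bmi1*-CPC replicate 1 or *Bmi1*-CPC replicate 4, since *Tsr1* was then not called.

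*Myc* (ENSMUSG00000022346) had values of 85.4, 123, 108 and 115 in *Sca-1*-YFP- cells, 28.8, 39.3, 21.3 and 38.1 in *Bmi1*-CPC, and 89.3, 89.1, 77.5 and 58.8 in AMI *Bmi1*-CPC. The *Bmi1*-CPC libraries lay below all others, and the AMI libraries overlapped those of *Sca-1*-YFP- cells. The means were 108 ± 16.2, 31.9 ± 8.46 and 78.7 ± 14.4 (SD, n = 4). In homeostasis *Myc* was thus lower in *Bmi1*-CPC, by a log2 fold change of −1.75 (SE 0.19, limma adjusted p = 2e-05). After AMI it was 2.46-fold higher than in homeostatic *Bmi1*-CPC, with a log2 fold change of 1.30 (SE 0.19, adjusted p = 0.00025). Both calls held in all 18 other settings tried. Of the fibroblast markers 10 of 10 were lower in homeostatic *Bmi1*-CPC as well, where 17.6% of all genes were called lower. After AMI 6 of them rose and 1 fell, against 21.4% and 22.0% of all genes. Markers of macrophages (10 of 10), endothelial cells (10 of 10) and cardiomyocytes (9 of 9) were instead higher in homeostatic *Bmi1*-CPC, against 16.8% of all genes. The part of any of these cell types in the result was not tested. Immediate early genes, to which *Myc* is often counted, summed to 8343 to 13191 in *Sca-1*-YFP- cells, 5860 to 13787 in *Bmi1*-CPC and 5917 to 6334 after AMI. In *Bmi1*-CPC replicate 2 had the sum of 13787, and the other libraries had at most 7142. *Myc* was below both other groups in all 4 of these libraries, and its highest value among them was in replicate 2. The part of immediate early genes in the *Myc* values was not tested.

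*Max* (ENSMUSG00000059436), the partner that MYC, MXD4 and MXI1 share, had 81.6, 80.1, 73.1 and 83.7 in *Sca-1*-YFP- cells, 114, 93.7, 66.9 and 90.5 in *Bmi1*-CPC, and 58.7, 57.3, 54.4 and 66.3 after AMI. AMI libraries lay below all others, while the homeostatic groups overlapped. It changed by −0.59 on the log2 scale after AMI (SE 0.14, limma adjusted p = 0.0054) and 0.17 between the homeostatic populations (95% interval −0.15 to 0.49). *Mxd4* (ENSMUSG00000037235), a repressor linked to cells that stop dividing, had 92.4, 100.2, 80.3 and 79.3 in *Sca-1*-YFP- cells, 112, 149, 88.1 and 103 in *Bmi1*-CPC, and 50.1, 46.7, 51.5 and 51.6 after AMI. All AMI libraries were again the lowest. *Mxd4* fell by 1.14 on the log2 scale after AMI (SE 0.14, limma adjusted p = 7.1e-05), from a mean of 113 ± 26.0 to 49.96 ± 2.28. In homeostasis its log2 fold change was 0.34 (SE 0.15, adjusted p = 0.11). It was called higher with the replicate block (0.024), without *Bmi1*-CPC replicate 3 (0.039) and with library totals without mitochondrial genes (0.044). It shares 514 exonic bases (13.2%) with the antisense gene *Gm42846*, and without strand the reads of both cannot be told apart. *Mxi1*, a related repressor, had 44.5, 54.3, 42.2 and 38.8 in *Sca-1*-YFP- cells, 30.3, 49.6, 50.1 and 37.1 in *Bmi1*-CPC, and 34.6, 35.1, 30.9 and 35.1 after AMI. Its AMI libraries lay below those of *Sca-1*-YFP- cells but within the spread of *Bmi1*-CPC, and neither main comparison called it (log2 fold change −0.12, 95% interval −0.49 to 0.25, and −0.27, −0.60 to 0.07). Without *Bmi1*-CPC replicate 1 it was called lower after AMI (adjusted p = 0.021).

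**Figure D1:**
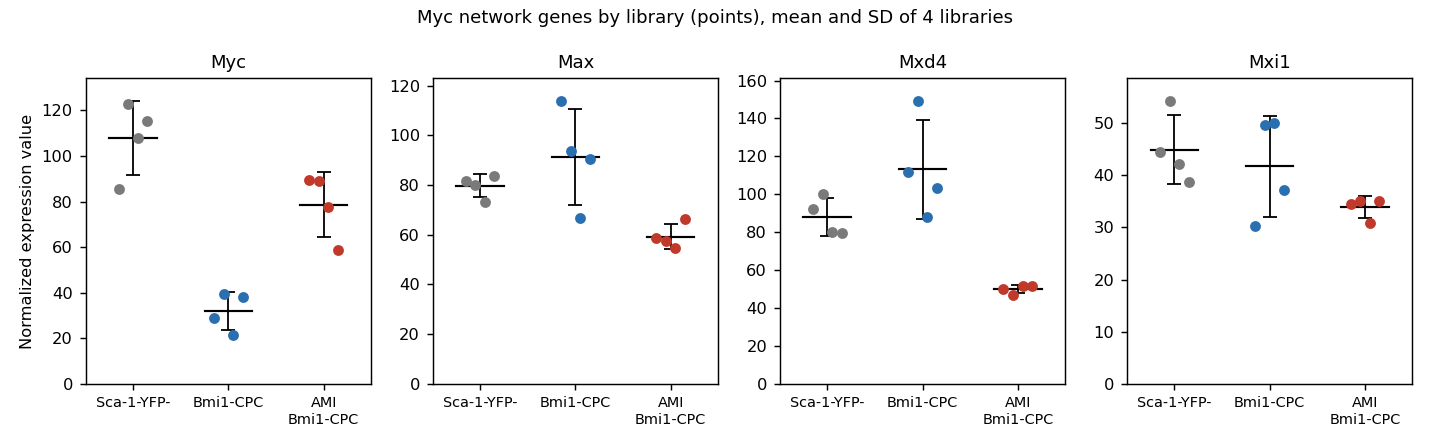
Normalized expression values of Myc, Max, Mxd4 and Mxi1 (y axis, from 0) in each library of Sca-1-YFP- cells, Bmi1-CPC and AMI Bmi1-CPC (points), with the mean (horizontal line) and SD (bars) of 4 libraries. Myc was lowest in Bmi1-CPC at 21.3 to 39.3, whereas Max and Mxd4 were lowest after AMI, at 54.4 to 66.3 and 46.7 to 51.6.

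After AMI the genes split. In *Bmi1*-CPC from infarcted hearts 8 of the 39 genes were higher than in homeostasis (*Myc*, *Npm1*, *Nop58*, *Nhp2*, *Wdr75*, *Tsr1*, *Ddx21* and *Gnl3*) and 7 lower (*Max*, *Mxd4*, *Polr1a*, *Ubtf*, *Rrp9*, *Bysl* and *Nob1*). That is 20.5% and 17.9% of them, where limma called 21.4% of all 12486 genes tested higher and 22.0% lower (43.4% together), so that neither share exceeded the background. The groups did not overlap for 7 genes in each direction, against 20.0% and 20.6% of all genes (40.6% together). The median log2 fold change was −0.10 (all genes −0.02) and the median absolute change was 0.27 (all genes 0.37). Without *Bmi1*-CPC replicate 2 the median of the 39 was −0.0169, against −0.0188 for all genes. *Myc*, *Nop58*, *Wdr75* and *Gnl3* among the higher and *Max*, *Mxd4*, *Rrp9* and *Nob1* among the lower were called in every setting that tested them. *Rrp9* and *Nob1* were tested in 17 of the 18 alternatives, since the stricter filter on low values left them out. The other 7 calls were lost in at least 1 setting. Without AMI replicate 3 the counts were 4 higher and 4 lower, and without *Bmi1*-CPC replicate 4 or AMI replicate 2 they were 5 higher and 6 lower. The homeostatic and the AMI comparison share the 4 homeostatic *Bmi1*-CPC libraries, so that their values for a gene are not independent.

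**Figure D2:**
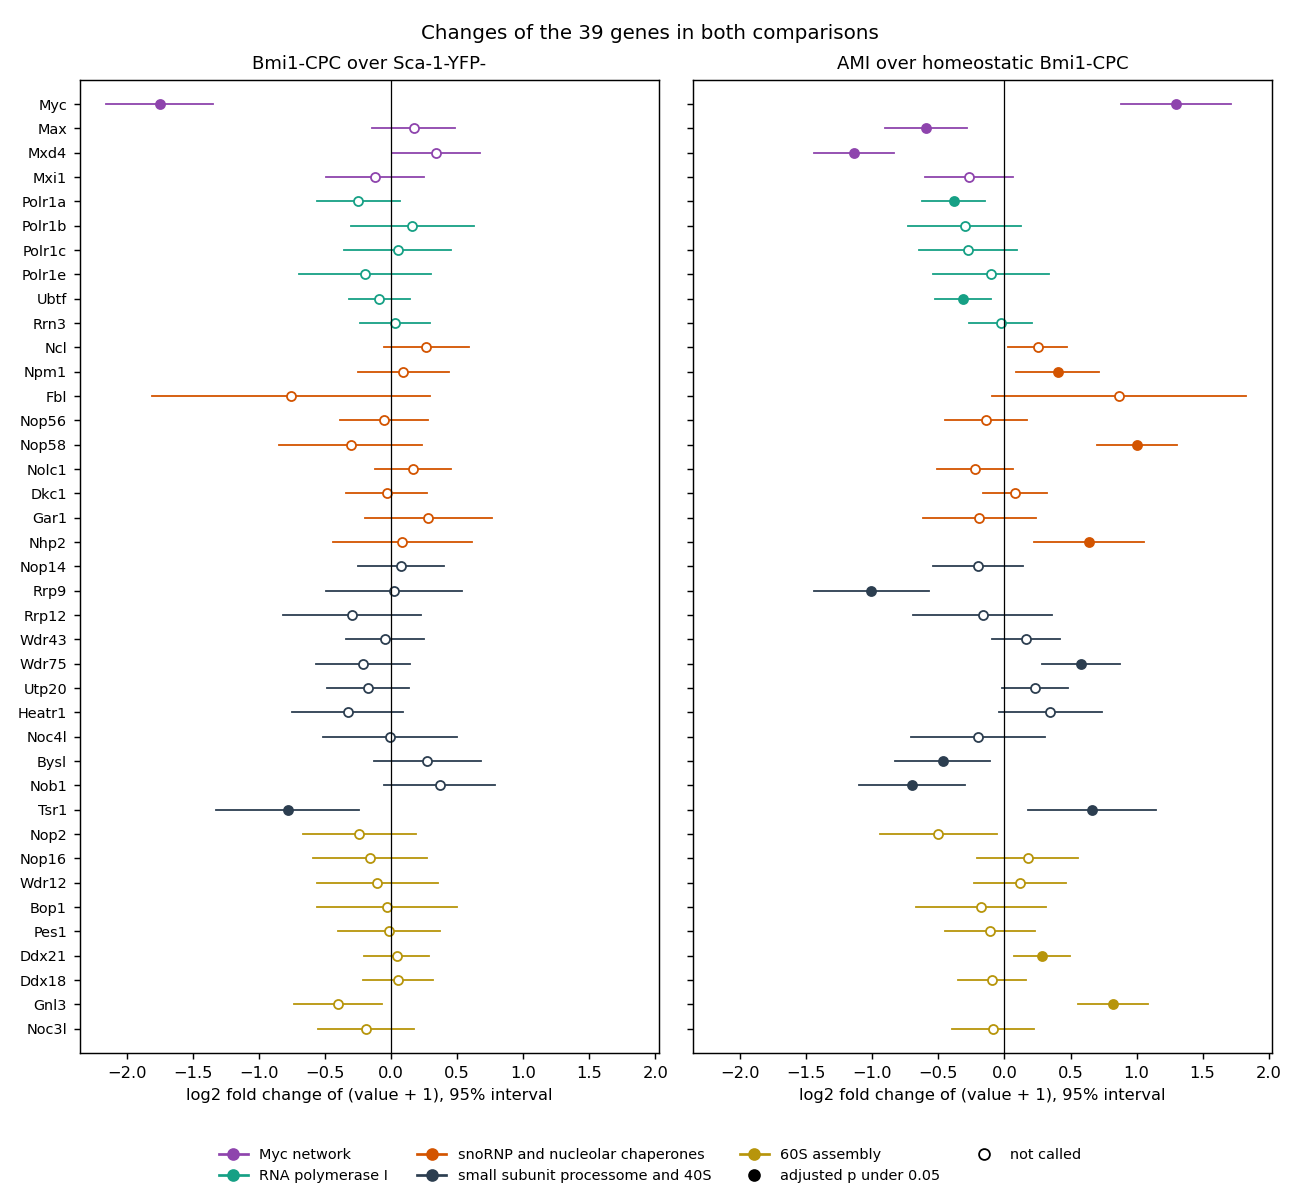
Log2 fold change of (value + 1) of the 39 genes (x axis) with its 95% interval (lines), for Bmi1-CPC over Sca-1-YFP- cells (left) and AMI over homeostatic Bmi1-CPC (right), coloured by role, with filled points for an adjusted p under 0.05 in limma. Only Myc and Tsr1 are filled on the left, and 8 genes to the right and 7 to the left of 0 are filled in the AMI panel.

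In the snoRNP and chaperone group 3 of 9 genes rose after AMI and 0 fell, where 21.4% of all genes were called higher and 22.0% lower (0 fell also at an unadjusted p under 0.05 and in edgeR and DESeq2). *Nop58* (ENSMUSG00000026020), a core protein of the C/D box snoRNP that guide methylation of ribosomal RNA, had 27.6, 75.4, 42.4 and 42.9 in *Sca-1*-YFP- cells, 28.6, 47.2, 32.5 and 36.4 in *Bmi1*-CPC, and 78.9, 69.0, 69.6 and 71.9 after AMI. All AMI libraries lay above those of *Bmi1*-CPC, and *Sca-1*-YFP- replicate 2 alone reached the AMI values. The log2 fold change after AMI was 1.00 (SE 0.14, limma adjusted p = 0.00017), the largest called rise among the 35 ribosome biogenesis genes with all libraries used. Its C/D box partner *Nop56* did not follow, with means of 63.3 ± 7.53, 61.7 ± 13.4 and 55.1 ± 4.62 and a log2 fold change after AMI of −0.14 (95% interval −0.45 to 0.17). *Fbl*, the methyltransferase of the same particle, was measured with 1 to 81 reads and spread widely, at 3.68 to 9.52 in *Sca-1*-YFP- cells, 0.365 to 7.997 in *Bmi1*-CPC and 5.39 to 7.59 after AMI, and was not called (log2 fold change 0.87, 95% interval −0.09 to 1.83, and −0.76, −1.81 to 0.29, in homeostasis). The call for *Fbl* passed without *Bmi1*-CPC replicate 2 (adjusted p = 0.032), at a log2 fold change of 1.24 that exceeded that of *Nop58* in any setting. Both *Nop56* and *Fbl* have near-identical copies in the genome, so that some of their reads are uncertain.

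*Nhp2*, a protein of the H/ACA snoRNP that guide pseudouridylation, had 4.16, 2.12, 2.21 and 3.17 in *Sca-1*-YFP- cells, 3.99, 2.88, 2.31 and 3.24 in *Bmi1*-CPC, and 4.45, 5.39, 5.89 and 5.75 after AMI. Its AMI libraries were above all homeostatic ones, on 9 to 45 reads per library. The log2 fold change after AMI was 0.64 (SE 0.19, limma adjusted p = 0.017, and 0.053 without AMI replicate 3). The pseudouridine synthase of these particles, *Dkc1*, had 37.7 ± 4.27 in *Bmi1*-CPC and 39.7 ± 2.90 after AMI, the smallest change of the group (log2 fold change 0.08, 95% interval −0.16 to 0.32), and *Gar1*, a further H/ACA protein, had −0.19 (−0.62 to 0.24). *Npm1*, which encodes the nucleolar chaperone nucleophosmin, had 207, 236, 224 and 186 in *Sca-1*-YFP- cells, 311, 236, 177 and 202 in *Bmi1*-CPC, and 304, 304, 298 and 293 after AMI. *Bmi1*-CPC replicate 1 exceeded all AMI libraries, and the other 3 of that group lay below them. The log2 fold change was 0.40 (SE 0.14, adjusted p = 0.04), and the call was lost without any 1 of the 8 libraries other than *Bmi1*-CPC replicate 1 (adjusted p 0.061 to 0.11) and with library totals without mitochondrial genes (0.051). *Ncl*, which encodes nucleolin, had 257, 273, 239 and 202 in *Bmi1*-CPC and 307, 287, 276 and 282 after AMI. These libraries did not overlap, yet the test was not passed in limma (log2 fold change 0.25, adjusted p = 0.063), while it was with DESeq2 (0.044), with quantile normalization (0.037) and without *Bmi1*-CPC replicate 2 (0.033). In *Sca-1*-YFP- cells *Ncl* had 239.6, 224, 153 and 197, and its homeostatic log2 fold change was 0.27 (adjusted p = 0.2). *Npm1* has 5 near-identical copies over at least 300 bases at 95% identity or more, the longest of 876 bases.

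Of the 9 genes for 60S assembly 2 rose after AMI and 0 fell in limma, against 21.4% and 22.0% of all genes. At an unadjusted p under 0.05 limma had 1 lower gene, and edgeR and DESeq2 each called 1 lower, in each case *Nop2*. *Gnl3* (ENSMUSG00000042354), the nucleolar GTPase nucleostemin known from dividing stem cells, had 17.0, 22.0, 22.6 and 23.0 in *Sca-1*-YFP- cells, 15.8, 13.1, 16.2 and 17.7 in *Bmi1*-CPC, and 30.7, 28.6, 27.0 and 27.5 after AMI. Every AMI library lay above every homeostatic one, and the homeostatic groups overlapped only through *Sca-1*-YFP- replicate 1 and *Bmi1*-CPC replicate 4. *Gnl3* had a log2 fold change of 0.82 after AMI (SE 0.12, limma adjusted p = 0.00026). In homeostasis it was −0.41 (SE 0.15, adjusted p = 0.058), which passed the threshold without *Sca-1*-YFP- replicate 1 (0.033), with a filter at a value of 10 (0.049) and when library totals were used (0.0062). *Ddx21*, an RNA helicase of the nucleolus, had 42.5, 47.2, 47.9 and 46.7 in *Bmi1*-CPC and 50.4, 55.4, 59.4 and 60.5 after AMI. These groups did not overlap, at a log2 fold change of 0.28 (SE 0.10, adjusted p = 0.031). The call was lost without *Bmi1*-CPC replicate 1 (0.058) or 4 (0.054) and without AMI replicate 2 (0.061), 3 (0.095) or 4 (0.082), and with library totals (0.069).

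*Nop2*, a methyltransferase of the large subunit RNA, had 15.7, 14.6, 17.1 and 13.7 in *Sca-1*-YFP- cells, 8.43, 16.1, 12.3 and 15.5 in *Bmi1*-CPC, and 8.97, 6.93, 10.3 and 8.87 after AMI. *Bmi1*-CPC replicate 1 alone was as low as the AMI libraries, and the log2 fold change of −0.50 had an adjusted p of 0.064 in limma, which became 0.0073 without that library. The PeBoW complex of *Pes1*, *Bop1* and *Wdr12*, which processes the 60S precursor, showed no called change in either comparison, with log2 fold changes of −0.02, −0.03 and −0.10 in homeostasis and −0.11, −0.17 and 0.12 after AMI. *Pes1* and *Noc3l* gave the smallest changes of the 60S group, −0.02 in homeostasis and −0.09 after AMI. *Ddx18*, a further helicase, had 24.1 ± 0.364, 25.1 ± 2.15 and 23.5 ± 2.21, and *Nop16* had 5.22 ± 0.911, 4.57 ± 0.692 and 5.28 ± 0.667 (SD, n = 4). *Pes1*, *Wdr12*, *Ddx18* and *Ddx21* have near-identical copies too, so that some of their reads are uncertain.

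Among the 11 genes of the small subunit processome and 40S maturation, 2 rose and 3 fell after AMI, against 21.4% and 22.0% of all genes. *Wdr75*, a protein of the subcomplex that binds the ribosomal RNA precursor first, had 20.4, 19.7, 27.5 and 21.4 in *Sca-1*-YFP- cells, 18.2, 15.03, 21.1 and 22.2 in *Bmi1*-CPC, and 28.7, 30.0, 26.1 and 30.7 after AMI. The AMI libraries were above all of *Bmi1*-CPC, and *Sca-1*-YFP- replicate 3 reached the lowest of them. Its log2 fold change was 0.58 (SE 0.14, limma adjusted p = 0.0047). *Wdr43* and *Heatr1*, of the same subcomplex, had log2 fold changes of 0.16 (95% interval −0.09 to 0.42) and 0.35 (−0.04 to 0.74). *Heatr1* varied within *Bmi1*-CPC, at 19.1, 21.0, 35.5 and 31.4, against 31.3, 27.7, 37.3 and 35.5 in *Sca-1*-YFP- cells and 32.6, 32.1, 31.4 and 36.8 after AMI. It was called higher after AMI without *Bmi1*-CPC replicate 3 (adjusted p = 0.032). *Utp20*, a scaffold of the processome, had 35.9 ± 2.89 and 42.5 ± 5.12, a log2 fold change of 0.23 (−0.02 to 0.48, adjusted p = 0.12, and 0.05, then called, without AMI replicate 1).

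*Tsr1* (ENSMUSG00000038335), a late factor of 40S maturation, had 14.6, 15.9, 13.1 and 21.9 in *Sca-1*-YFP- cells, 7.25, 15.03, 9.38 and 6.13 in *Bmi1*-CPC, and 14.8, 16.2, 14.95 and 13.3 after AMI. *Bmi1*-CPC replicate 2 lay within the range of both other groups, and the other 3 libraries of that group lay below them. Its log2 fold change was −0.78 in homeostasis (SE 0.25, limma adjusted p = 0.027) and 0.67 after AMI (SE 0.22, adjusted p = 0.03). The homeostatic call was lost without *Sca-1*-YFP- replicate 4 (adjusted p = 0.09), *Bmi1*-CPC replicate 1 (0.068) or *Bmi1*-CPC replicate 4 (0.086). The AMI call was lost without *Bmi1*-CPC replicate 1 (0.066) or 4 (0.084), or AMI replicate 1 (0.063), 2 (0.076) or 3 (0.064). *Tsr1* shares 1159 exonic bases (34.2%) with *Srr* on the other strand, and reads there cannot be assigned to either gene.

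*Rrp9*, which encodes the U3 snoRNP protein of the processome, had 5.53, 3.23, 2.44 and 4.00 in *Sca-1*-YFP- cells, 3.70, 4.37, 4.02 and 3.00 in *Bmi1*-CPC, and 1.88, 1.19, 1.23 and 1.21 after AMI. Its AMI libraries were below all others. *Rrp9* changed by −1.01 on the log2 scale (SE 0.20, limma adjusted p = 0.0018), on 8 to 12 reads per AMI library and 12 to 20 per *Bmi1*-CPC library. *Nob1*, the endonuclease that completes the 18S ribosomal RNA, had 7.005, 6.35, 7.09 and 6.76 in *Sca-1*-YFP- cells, 11.7, 9.28, 6.46 and 9.49 in *Bmi1*-CPC, and 5.05, 5.53, 4.73 and 5.46 after AMI. AMI libraries were again below all others, and 3 of 4 *Bmi1*-CPC libraries were above those of *Sca-1*-YFP- cells. *Nob1* changed by −0.70 on the log2 scale after AMI (SE 0.18, adjusted p = 0.0092) and 0.37 in homeostasis (adjusted p = 0.17). *Bysl*, a further 40S maturation factor, had 8.73 to 12.9 in *Bmi1*-CPC and 6.25 to 7.70 after AMI, without overlap (log2 fold change −0.47, SE 0.16, adjusted p = 0.036). That call was lost without *Bmi1*-CPC replicate 2 (0.093) or 3 (0.068), or without AMI replicate 1 (0.097), 2 (0.076), 3 (0.055) or 4 (0.063), with library totals (0.17) and with the replicate number as block (0.053). *Bysl* overlaps *Ccnd3* on the other strand by 361 bases, 9.37% of its exonic length. *Noc4l*, whose yeast counterpart acts in 40S formation, had the smallest homeostatic change of this group, −0.01 (95% interval −0.52 to 0.50). *Nop14* and *Rrp12*, processome and export factors in yeast, had −0.20 and −0.17 after AMI, uncalled.

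Of the 6 genes of RNA polymerase I 2 fell after AMI and 0 rose, where 22.0% of all genes were called lower and 21.4% higher (0 rose also at an unadjusted p under 0.05 and in edgeR and DESeq2). *Polr1a*, the largest subunit of the enzyme, had 32.2, 25.5, 35.7 and 40.1 in *Sca-1*-YFP- cells, 27.7, 29.3, 25.7 and 27.8 in *Bmi1*-CPC, and 23.1, 20.4, 19.2 and 21.1 after AMI. *Ubtf*, which keeps the ribosomal RNA genes open for the polymerase, had 54.6, 53.2, 55.2 and 54.2 in *Sca-1*-YFP- cells, 45.4, 50.6, 51.5 and 56.8 in *Bmi1*-CPC, and 39.6, 40.5, 40.6 and 42.2 after AMI. For both genes all AMI libraries were below all homeostatic ones. The log2 fold changes were −0.38 for *Polr1a* (SE 0.11, limma adjusted p = 0.014) and −0.32 for *Ubtf* (SE 0.10, adjusted p = 0.02). Both calls were lost when library totals were used (0.15 and 0.29). *Polr1a* was also lost without AMI replicate 3 (0.05), and *Ubtf* without *Bmi1*-CPC replicate 4 (0.06), AMI replicate 1 (0.054) or AMI replicate 3 (0.051). *Rrn3*, which makes the polymerase ready to start, was the steadiest of the group, at 31.2 ± 1.48 in *Sca-1*-YFP- cells, 31.9 ± 3.32 in *Bmi1*-CPC and 31.2 ± 1.69 after AMI. Its 95% intervals were −0.23 to 0.29 in homeostasis and −0.27 to 0.21 after AMI on the log2 scale. The subunits *Polr1b*, *Polr1c* and *Polr1e* had log2 fold changes of −0.30, −0.27 and −0.10 after AMI, and none passed the test.

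**Figure D3:**
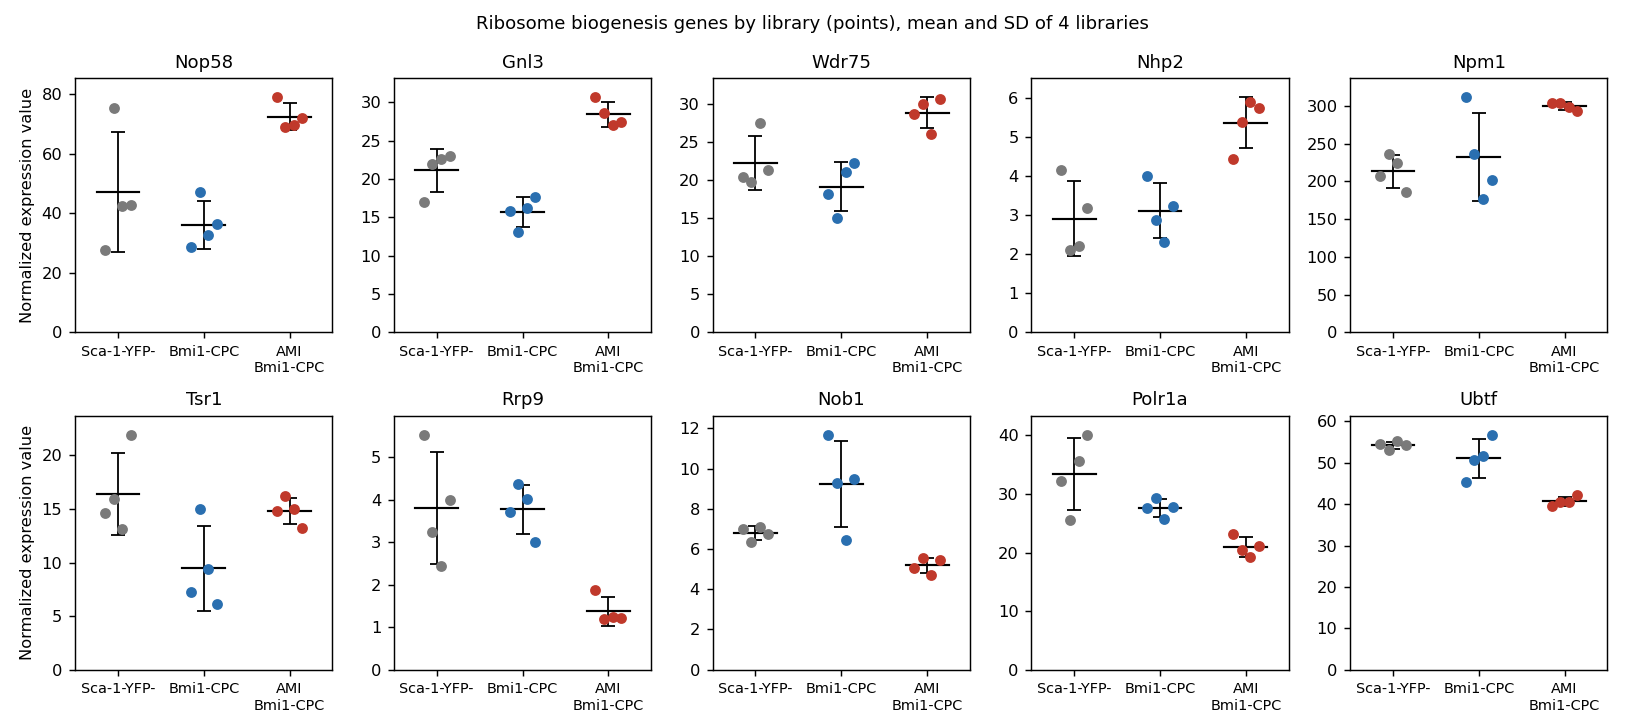
Normalized expression values (y axis, from 0) of 10 ribosome biogenesis genes in each library of the 3 groups (points), with the mean (horizontal line) and SD (bars) of 4 libraries. Nop58 at 69.0 to 78.9 and Gnl3 at 27.0 to 30.7 after AMI lie above all homeostatic Bmi1-CPC libraries, while Rrp9, Nob1, Polr1a and Ubtf lie below them.

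AMI *Bmi1*-CPC were also set against *Sca-1*-YFP- cells, which differ from them in population and in AMI at once and share libraries with both other comparisons. In limma 7 of the 39 genes were higher and 8 lower, where 25.5% and 26.3% of 12521 genes were (51.8% together). The groups did not overlap for 5 higher and 9 lower genes, against 22.2% and 24.5% of all genes (46.8% together). *Npm1*, *Nop58*, *Nhp2*, *Wdr75*, *Ddx21* and *Gnl3* were higher in AMI *Bmi1*-CPC than in each homeostatic group, 6 genes in all, and *Max*, *Mxd4*, *Polr1a*, *Ubtf* and *Rrp9* lower than in each, 5 genes in all. *Ncl* was higher than in *Sca-1*-YFP- cells alone (log2 fold change 0.52, adjusted p = 0.0057), and *Mxi1* (−0.39, adjusted p = 0.015) and *Nop2* (−0.74, adjusted p = 0.0012) were lower than in *Sca-1*-YFP- cells alone. In AMI *Bmi1*-CPC *Myc* fell by 0.46 on the log2 scale against *Sca-1*-YFP- cells (adjusted p = 0.024), but not without *Sca-1*-YFP- replicate 2 (0.052), 3 (0.053) or 4 (0.062) or AMI replicate 3 (0.052) or 4 (0.063). When library totals were used 1 gene was higher and 8 lower, and without *Sca-1*-YFP- replicate 1 the higher genes were 4. None of the 7 higher genes kept its call in every setting that tested it, whereas 7 of the 8 lower genes, all but *Myc*, did. Library totals, however, shifted the median over all genes by −0.14 in this comparison. The share of called genes that were higher then moved from 49.2% to 35.6%. *Ncl*, *Npm1*, *Nhp2* and *Gnl3* lost their calls with library totals alone. Over all 3 comparisons 21 of the 39 genes were never called. For this count, and for the 6 and 5 genes above, the share over all genes was not computed.

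The values of the ribosome biogenesis genes were also added up for each library. The 35 genes summed to 1087 to 1145 in *Sca-1*-YFP- cells, 1058 to 1196 in *Bmi1*-CPC and 1262 to 1292 after AMI, so that all AMI libraries were above the others. This sum is weighted towards genes with many reads such as *Ncl* and *Npm1*. With each gene given the same weight, the mean of log2(value + 1), taken relative to the 12 libraries, was 0.04 ± 0.07 in *Sca-1*-YFP- cells, −0.04 ± 0.10 in *Bmi1*-CPC and −0.01 ± 0.04 after AMI (SD, n = 4), and the groups overlapped. The snoRNP and chaperone genes summed to 556 to 675, 574 to 722 and 783 to 816, and the RNA polymerase I genes to 129 to 150.4, 123 to 142 and 109 to 113, in the same order. In the authors' scaling the first were highest and the second lowest after AMI, without overlap. That separation depends on the scaling as well, and it was not examined with library totals. Markers of dividing cells (11 of 12) and of macrophages (9 of 10) rose after AMI together with the snoRNP and chaperone sum, where 21.4% of all genes rose. No marker of either list was at 0 reads throughout *Bmi1*-CPC or AMI *Bmi1*-CPC. Markers of leukocytes (5 of 5), B cells (5 of 5) and fibroblasts (6 of 10, with 1 lower) rose as well. Those of endothelial cells (7 of 10) and cardiomyocytes (9 of 9) fell. The part of any of these lists in the summed values was not tested.

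**Figure D4:**
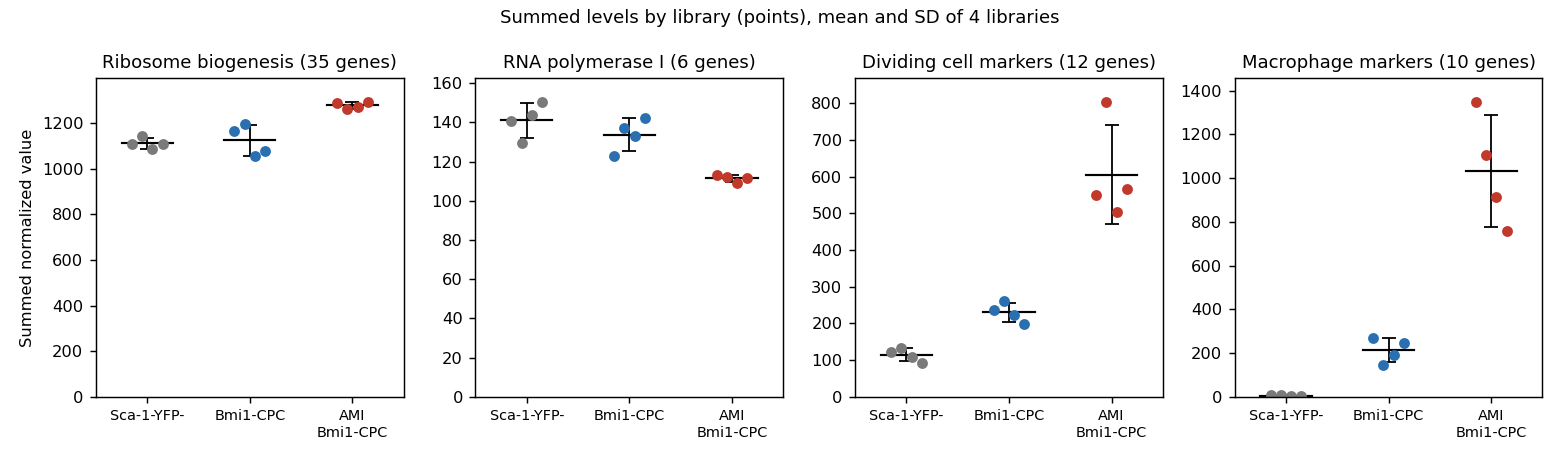
Summed normalized values per library (y axis, from 0) of the 35 ribosome biogenesis genes, the 6 RNA polymerase I genes among them, 12 dividing cell markers and 10 macrophage markers in the 3 groups (points), with mean and SD of 4 libraries. After AMI the ribosome biogenesis sum was 1262 to 1292 and the RNA polymerase I sum 109 to 113, while dividing cell markers rose from 198 to 262 to 503 to 804. Sums are in the authors' scaling and were not rescaled to library totals.

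Genes of the same pathways outside the 39 were also called in both directions, with more lower than higher after AMI. Of the 35 ribosome biogenesis genes above, 20.0% were higher and 14.3% lower after AMI, against 21.4% and 22.0% of all genes. Of 117 further ribosome biogenesis genes 9 were higher and 3 lower in *Bmi1*-CPC in homeostasis (median log2 fold change 0.06), where 16.8% and 17.6% of all genes were called. After AMI 15 were higher and 26 lower (median −0.10), that is 12.8% and 22.2% of them against 21.4% and 22.0% of all genes. In homeostasis *Ddx24* (0.51) and *Pak1ip1* (0.62), of 60S assembly, and *Imp4* (0.51), of the U3 snoRNP, were higher in *Bmi1*-CPC, while *Tsr2* (−0.76) and *Rcl1* (−0.74), of 40S production, were lower. *Gltscr2* (0.51), *Ptrf* (0.75), *Baz2a* (0.34) and *Tcof1* (0.36), which encode nucleolar or RNA polymerase I factors, were higher as well. After AMI the 40S export factors *Ltv1* (0.92) and *Pno1* (0.89) rose, as did *Rpf2* (0.93) of the 5S particle, *Taf1d* (0.91) of the RNA polymerase I promoter complex, and *Nop10* (0.74) and *Naf1* (0.84) of the H/ACA snoRNP. *Taf1c* (−1.10), of the same promoter complex as *Taf1d*, fell, as did *Ruvbl2* (−1.08), a helicase of snoRNP assembly, *Ptrf* (−0.92), *Gltscr2* (−0.90), *Ddx54* (−0.75) and *Rrp36* (−0.71). All values in this paragraph are log2 fold changes in limma at an adjusted p under 0.05.

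Of the 14 further genes of the *Myc* network 3 were higher in homeostatic *Bmi1*-CPC over *Sca-1*-YFP- cells and none of the others was called, with *Mycn*, a relative of *Myc*, at 16.6 ± 2.70 against 7.94 ± 3.30 (log2 fold change 1.03, limma adjusted p = 0.0038), the direction opposite to that of *Myc*. The background of higher genes was 16.8%. *Mycbp* (0.57) and *Fbxw7* (0.43), the ubiquitin ligase subunit that marks MYC for degradation, were the other higher genes. After AMI 2 were higher and 4 lower, against 21.4% and 22.0% of all genes. *Mxd1*, a repressor of the same family as *Mxd4*, had 15.5, 29.3, 13.8 and 17.9 in *Bmi1*-CPC and 48.6, 41.9, 42.8 and 40.4 after AMI, without overlap (log2 fold change 1.196, adjusted p = 0.00044), and thus rose where *Mxd4* fell. *Mycn* fell after AMI by 0.80 on the log2 scale (adjusted p = 0.011) and *Mlxip* by 0.61 (adjusted p = 0.0017). Of 30 *Myc* targets outside the ribosome 4 were higher and 4 lower in homeostasis (16.8% and 17.6% of all genes), with *Tfrc* (1.42), the transferrin receptor, up and the synthesis enzymes *Fasn* (−1.39) and *Cad* (−0.91) down. After AMI 11 of these 30 rose and 3 fell (21.4% and 22.0% of all genes), at a median log2 fold change of 0.24 against −0.02 for all genes, led by the mitochondrial folate enzyme *Mthfd2* (1.14), the chaperonin *Hspe1* (1.07) and the peroxiredoxin *Prdx4* (0.80).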

How the data were processed

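RNA-seq of sorted heart cells was analysed in 12 libraries, 4 per group. Per the labels and methods, the authors amplified cDNA from total RNA, made libraries that do not keep the strand and sequenced single reads of 75 bases. Of tools, cutadapt, RSEM and edgeR are listed in the submitters' processing notes, with NCBIM37 as build and no versions. The deposited values are normalized signal values made by the authors. All of them (100% within 1e-06 of a read) equal whole reads plus 0.5 times 1 factor per library, and the homeostatic *Bmi1*-CPC columns are identical in both tables, so that 1 normalization covers the 12 libraries. The deposited tables also hold the authors' log2 fold change, a fold change score and an adjusted p-value, which were not used. Groups were taken from the labels, and no source states separate cultures beyond the pools of mice, so that p-values measure the spread between pools.

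Values were tested as log2(value + 1) in limma 3.58.1 (R 4.3.3) with a variance trend, two-sided, over all genes whose value exceeded 1 in 4 or more of 8 libraries, with Benjamini-Hochberg adjustment over all of them and an adjusted p under 0.05 as threshold. Fold changes refer to log2(value + 1), so that those of low genes are understated, and SE and 95% intervals come from that model. As alternatives, pseudocounts of 0.1 and 5, no filter, a filter at 10, library totals with and without mitochondrial genes, quantile normalization, edgeR 4.0.16 and DESeq2 1.42.0 on the recovered counts of reads, the replicate number as block, and leaving out each library were used. The procedure was also run on simulated reads, drawn independently for each library and thus without the pairing of pools described below. No result given here rests on that run. The floor of 3 reads and the values it gives cover counting error only.

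Per-library values are given for the *Myc* network, for the 8 genes with the smallest adjusted p in each main comparison. Those of the other called genes and of *Nop2* and *Npm1* were added after the values were seen. The largest and smallest change of each role, and up to 3 called genes of each further list, were also named. The members and lists were chosen with earlier results of these data known, which includes the pathway and marker lists, written from general knowledge. No set test was made. In the homeostatic comparison, deviations from the group means correlated between replicates of the same number at 0.26, 0.25, 0.16 and 0.30 and with other numbers at most at 0.08, so that the numbers pair the pools there. The values reported come from the model without the block, and the block is reported only if a call changed with it. Near-identical transcripts were searched with blastn 2.17.0 (at least 95% identity over 300 bases), and 7 of the 39 genes had such copies. Further, 12 overlap a gene on the other strand.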

Additional observations from a re-analysis of the deposited data

Results flagged for a closer look

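In groups of 4 libraries, the gap of the highest or lowest library to its neighbour was compared with the range of the group for each of the 39 genes in each of the 3 groups. Of these 117 groups 3 exceeded Dixon's critical value at the 95% level, and chance alone gives about 1 in 20. All were in AMI *Bmi1*-CPC. *Mxi1* was 30.9 in replicate 3, below the other 3 libraries at 34.6 to 35.1. *Polr1c* was 9.72 in replicate 1, above 8.73 to 8.87. *Rrp9* was 1.88 in replicate 1, above 1.19 to 1.23, which is a difference of a few reads.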

How the results depend on the processing

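In homeostasis the counts of higher and lower genes were 0 and 2. Library totals gave 5 lower genes (with *Polr1a*, *Heatr1* and *Gnl3* added) and a median log2 fold change of −0.28, and totals without mitochondrial genes and the replicate block each gave 1 higher gene (*Mxd4*). Leaving out 1 library gave 0 to 1 higher, 1 to 3 lower and a median of −0.09 to −0.02. After AMI (8 higher and 7 lower) a filter at a value of 10 left 4 lower genes, since fewer genes were tested, and library totals gave 4 lower and a median of −0.0135. Leaving out 1 library gave 4 to 9 higher, 4 to 9 lower and a median of −0.14 to −0.0169. With the replicate block 8 were higher and 6 lower, *Bysl* being lost (adjusted p = 0.053). The deviations of same-numbered libraries correlated at −0.01 to 0.08 in that comparison, and 1 of the 4 numbers correlated best with itself, so that the libraries share only a number. For AMI *Bmi1*-CPC against *Sca-1*-YFP- cells (7 higher and 8 lower) the filter at 10 gave a median of −0.0624, library totals 1 higher gene and a median of −0.26, and totals without mitochondrial genes a median of −0.0582. Leaving out 1 library gave 4 to 6 higher, 7 to 9 lower and a median of −0.14 to −0.057, and the block 6 higher and 8 lower, with *Wdr75* lost (adjusted p = 0.055). Where no construction explains a change, the cause was not tested. No called gene changed direction under any alternative. In homeostasis 34 of the 39 genes kept their call or lack of it in up to 18 alternatives, in the AMI comparison 26 and in the comparison with *Sca-1*-YFP- cells 29.

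Depth limits genes such as *Rrp9* at 8 to 52 reads, *Nhp2* at 9 to 45 and *Fbl* at 1 to 81 reads, for which small changes were not detectable.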
